A study of Mus musculus with 6 samples.

Results

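Kinesins are the motor proteins that walk along microtubules, and their genes were followed here in neurons of the mouse amygdala. Members were all gene symbols of the count tables that begin with Kif and a number (with at most a letter and a digit after it) or with Kifc and a number, which gave 41 of 35976 genes. By known roles they were divided into 15 transport motors, 14 mitotic motors, 6 motors of cilia, 2 minus-end motors (Kifc2 and Kifc3) and 4 others. The division was made with earlier results of these data known. The neurons came from male C57BL/6J mice whose amygdala had received an adeno-associated virus, with Cas9 under the GfaABC1D promoter, which is active in astrocytes. In the sgEgfr group (3 libraries, genotype label sgEgfrAstro) the guides were directed at Egfr, the gene of the epidermal growth factor receptor. In the sgRosa group (3 libraries, genotype label sgRosa26) they were directed at the control locus Rosa. After more than 2 weeks of expression all mice of both groups underwent tube restraint over 7 days, then conditioning to fear (1 day) and its extinction (3 days), so neither group was unstressed. The protocol also names guides against Rosa or Areg in microglia; those samples were not analysed here. The labels give no age. The edited cells were astrocytes and the sequenced cells were neurons enriched magnetically from papain-digested tissue. The comparison asks how neuronal expression differed when nearby astrocytes carried guides against Egfr.

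Most kinesins burn ATP in a conserved motor domain to move cargo toward the plus ends of microtubules, which in axons point away from the cell body. Neurons depend on them for the delivery of mitochondria, synaptic vesicle precursors and receptors over long distances, and they do not divide. Another set of kinesins builds the spindle, separates chromosomes and completes cytokinesis in dividing cells. A further set works in cilia, among them those of the ependymal cells that line the ventricles. In dividing cells many mitotic genes are switched on together through a promoter element called CHR (cell cycle genes homology region) with CCAAT boxes upstream of it.

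Promoter sequences are shown first because their motif content differs between the transport and mitotic members, a feature that the division by role did not use. Windows from 250 bases before to 50 bases after the RefSeq transcript start (GRCm38.p6) were found for 33 of the 41 members. The 13 mitotic windows stand for 13 of 14 genes, and the 13 transport windows for 11 of 15 genes, since Kif1a and Kif1b have more than one start; Kif5a, Kif5b, Kif13b and Kif21b had none and were not searched. They were searched on both strands for TTTGAA and TTCGAA, both forms of CHR, and for CCAAT; matches of different motifs were allowed to overlap. Of 13 mitotic promoters, 11 held TTTGAA (84.6%), against 1 of 13 transport promoters (7.69%) and 17.9% of all 32851 promoters. CCAAT stood in 9 of 13 mitotic promoters (69.2%), 4 of 13 transport promoters (30.8%) and 37.4% of all promoters. Both CHR and CCAAT were present in 8 mitotic promoters (61.5%) and in 0 transport promoters, against 7.52% of all. The mitotic windows of Kifc1 and Kifc5b share a nearly identical stretch, so these genes are not separate observations in the mitotic shares. TTCGAA was in 0 promoters of either class and in 1.56% of all. The place of the match varied. Within the last 100 bases before the start, TTTGAA stood in 3 of 13 mitotic promoters (23.1%), 1 of 13 transport promoters (7.69%) and 5.77% of all, and after the start it stood in 6 mitotic promoters (46.2%), 0 transport promoters and 2.25% of all. The lines below give those last 100 bases for the 3 mitotic members and the 1 transport start (of Kif1a) picked because they hold the match there, and for 2 transport members without it, 5′ to 3′ on the strand of the gene, with capitals marking TTTGAA (or its reverse complement TTCAAA) and CCAAT (or ATTGG).
Kif11 (chr19:37376282-37376381, plus strand): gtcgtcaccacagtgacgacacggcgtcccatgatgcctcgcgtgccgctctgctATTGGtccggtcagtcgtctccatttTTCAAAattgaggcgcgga
Kif22 (chr7:127042421-127042520, minus strand): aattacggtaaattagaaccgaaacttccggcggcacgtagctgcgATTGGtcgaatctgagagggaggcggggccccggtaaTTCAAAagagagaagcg
Kif15 (chr9:122950981-122951080, plus strand): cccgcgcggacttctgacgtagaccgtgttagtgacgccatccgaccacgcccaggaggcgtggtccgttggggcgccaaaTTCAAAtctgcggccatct
Kif1a (chr1:93082481-93082580, minus strand): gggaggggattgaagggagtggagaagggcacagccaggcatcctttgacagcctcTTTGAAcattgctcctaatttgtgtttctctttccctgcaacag
Kif5c (chr2:49619186-49619285, plus strand): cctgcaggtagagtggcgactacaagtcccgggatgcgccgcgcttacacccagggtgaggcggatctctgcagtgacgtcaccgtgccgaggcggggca
Kif3a (chr11:53567269-53567368, plus strand): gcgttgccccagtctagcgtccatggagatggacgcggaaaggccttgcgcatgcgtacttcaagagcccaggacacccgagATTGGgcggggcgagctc
In Kif11 and Kif22 the CHR match began 19 and 17 bases before the start, with a CCAAT match 45 and 54 bases before it. Kif15 carried the CHR match at the same 19 bases with no CCAAT in this stretch. The Kif1a match began 44 bases before the start. That start lies inside the gene (93015464 to 93101951), and the stretch of the other Kif1a start (93101875 to 93101974) carried no match. Some other searched windows, those of Kif14, Kif2c and Kif17 among them, also lay inside their genes. Kif5c carried no match, and Kif3a carried a CCAAT match 18 bases before the start. A match of letters is a description and not a measured site, and a missing match says only that the letters are not in this window.

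The libraries held between 2520426 and 4849404 counts in sgEgfr and between 2348897 and 10152812 in sgRosa. The labels number the replicates without tying each to its own animal. The p-values therefore describe the spread among these libraries, which may be technical. The targeted gene Egfr was low in all of them (6, 18 and 6 counts in sgEgfr, against 1, 26 and 23 in sgRosa; log2 fold change -0.65, SE 1.03), and these neuron-enriched counts do not check editing in astrocytes. All 16 neuron markers were detected in every library, with a summed level of 3250 to 5132 CPM in sgEgfr, against 2094 to 5226 CPM in sgRosa (CPM is the count scaled to library size, here with TMM factors). RNA of other cells was present too. The 12 oligodendrocyte markers, all detected in every library, summed to 22726 to 58205 CPM in sgEgfr, against 24744 to 73269 CPM in sgRosa. Neuron markers were positive in sgEgfr in 16 of 16 genes (median log2 fold change 0.42) and oligodendrocyte markers negative in 12 of 12 (median -0.86). Microglia markers were positive in 10 of 10 (median 1.32), and edgeR called 0 genes in each list. The microglia markers summed to 400, 599 and 40.5 CPM in sgEgfr, against 84.1, 151 and 207 CPM in sgRosa. Their lowest library was thus sgEgfr replicate 3, and the groups overlapped. Astrocyte markers were negative in 8 of 10 (median -0.15) and summed to 423 to 1603 CPM in sgEgfr, against 785 to 1524 CPM in sgRosa. Endothelial markers were negative in 7 of 8 (median -0.37). Markers of oligodendrocyte precursors were positive in 6 of 8 (median 0.96), unlike those of mature oligodendrocytes. In these lists too edgeR called 0 genes. The part of cell makeup in the kinesin results was not tested. In bulk libraries, fewer cells of a type and less RNA per cell cannot be told apart.

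No kinesin gene passed in the comparison of sgEgfr with sgRosa. Of the 41 members, 26 passed the filter on low counts (all 15 transport, 2 mitotic, 4 cilia, 2 minus-end and 3 other members). In edgeR's quasi-likelihood test, adjusted by Benjamini-Hochberg over 13159 genes, 0 of the 26 were called, against 0% of all tested genes, and their adjusted p ranged from 0.824 to 0.991. At an unadjusted p under 0.05 there were 0 members, against 5.77% of all genes (3.05% higher and 2.72% lower in sgEgfr). DESeq2 also called 0 members (0.19% of all genes), with 0 at an unadjusted p under 0.05 (5.98%). It gave no adjusted p for Kif4, Kif18a, Kif6, Kif9, Kif17, Kif19a, Kif26b and Kif27, which could therefore not be called. The 0.19% is taken over all 13159 genes, including those without an adjusted p. Limma-voom called 0, where 0% of all genes passed, and put 3 members (Kif2a, Kif21a and Kif3b, all higher in sgEgfr, named after their values were seen) at an unadjusted p under 0.05, against 15.0% of all genes. The groups did not overlap for 1 member, Kif2a, among the 26, which was higher in sgEgfr, where 13.4% of all tested genes had groups that did not overlap (5.8% higher and 7.6% lower). Of the 15 untested members, Kif24 and Kifc1 had lower sgEgfr values without overlap, at 13 reads or fewer in each library. For Kif24 the highest sgEgfr value was 1.169 CPM and the lowest sgRosa value 1.170 CPM. Kifc1 had 0, 2 and 1 reads in sgEgfr, against 3, 4 and 7 in sgRosa. The share of untested genes with separate groups was not computed, so no result is read from Kif24 and Kifc1. The SEs of the tested members leave changes of moderate size undetected, and a missed threshold does not show that levels were equal.

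Tested transport and mitotic motors had medians of opposite sign, with no member passing the test. Transport members had a median log2 fold change of 0.17, with 10 positive and 5 negative, against a median of -0.039 and 46.2% positive over all tested genes. The 2 mitotic members that passed the filter had a median of -0.75 and were both negative. That value rests on the filter. With no filter 12 mitotic members were fitted and their median was 0.012. Per library the transport members summed to 11156, 9192 and 10707 CPM in sgEgfr, against 8851, 13260 and 8886 CPM in sgRosa. The mitotic members summed to 10.7, 15.6 and 13.6 CPM in sgEgfr, against 17.2, 19.2 and 10.7 CPM in sgRosa. Both sums overlapped between the groups. All kinesins together took 1.13%, 0.983% and 1.15% of counts in sgEgfr, against 0.781%, 1.39% and 1.04% in sgRosa, and sgRosa replicates 1 and 2 held the lowest and the highest share.

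**Figure D1:**
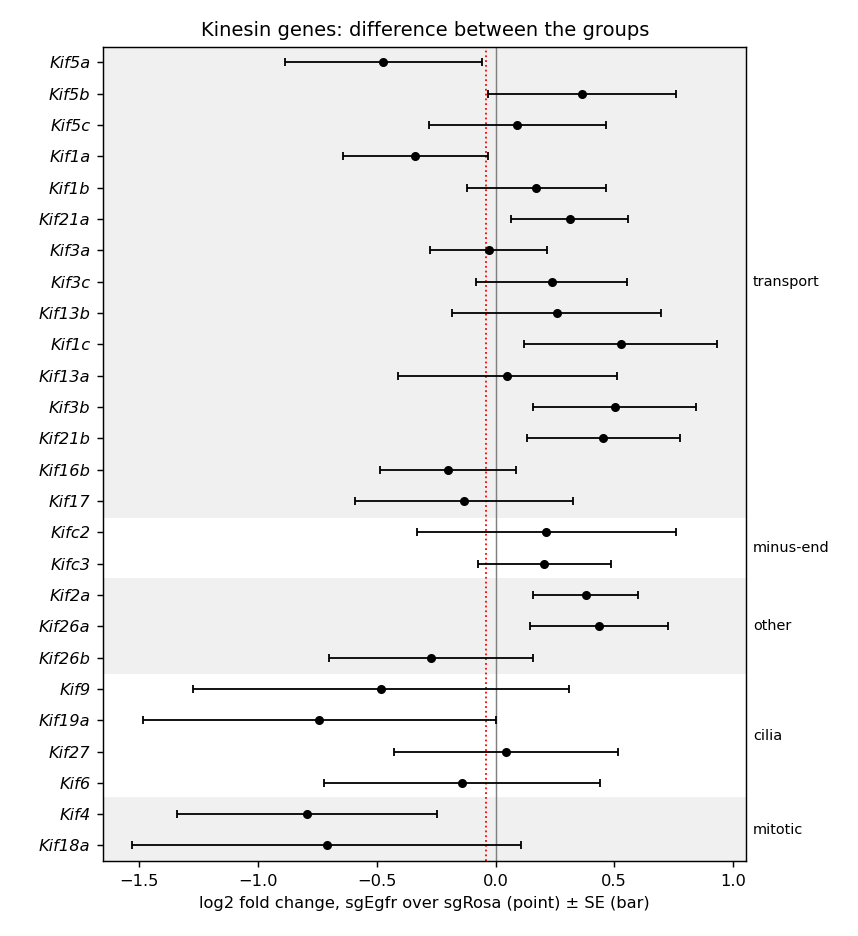
Log2 fold change of sgEgfr over sgRosa for the 26 kinesin genes that passed the low-count filter (points) with SE (bars), ordered by class and then by level per kb; the dotted red line is the median of all 13159 tested genes (-0.039). Points lie between -0.79 for Kif4 and 0.53 for Kif1c, and none passed the test.

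The heavy chains of kinesin-1, the founding anterograde motor, were the most abundant kinesin transcripts. Per kb of exon, which allows levels of different genes to be compared, Kif5a stood at 353 ± 114 CPM per kb in sgEgfr and 490 ± 150 in sgRosa (SD, n = 3 each). Kif5b stood at 472 ± 75.3 CPM per kb in sgEgfr and 367 ± 135 in sgRosa, and Kif5c at 237 ± 75.7 in sgEgfr and 222 ± 43.1 in sgRosa. Kif5a and Kif5b overlapped in both groups. Kif5c lay below Kif5b in both groups, at 153 to 300 against 385 to 516 CPM per kb in sgEgfr. In sgRosa it held 191 to 272 against 283 to 523 CPM per kb. Kif5c overlapped with Kif5a in sgEgfr but not in sgRosa. Kif1a, the next in order over all 6 libraries, averaged 76.7 ± 16.2 CPM per kb in sgEgfr and 96.9 ± 11.8 in sgRosa, and the minus-end motor Kifc2 averaged 84.9 ± 29.1 in sgEgfr and 73.0 ± 52.5 in sgRosa, which overlapped with Kif1a. Kif5b is expressed in most cell types, and Kif5a and Kif5c are enriched in neurons. The Kif5 genes together held 71.4% to 74.6% of kinesin reads in sgEgfr, against 69.7% to 78.7% in sgRosa.

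Kif5a (chromosome 10, 127225696 to 127263348, minus strand, mm10), the member mutated in a hereditary spastic paraplegia of humans, had 2616, 1604 and 3174 CPM in sgEgfr replicates 1, 2 and 3, against 2716, 4629 and 2921 CPM in sgRosa replicates 1, 2 and 3. The lowest library was sgEgfr replicate 2, the highest sgRosa replicate 2, and sgEgfr replicate 3 lay among the sgRosa values (log2 fold change -0.47, SE 0.42, edgeR adjusted p = 0.864). Without sgRosa replicate 2 the log2 fold change was -0.16. Kif5b had 4104, 4119 and 3071 CPM in sgEgfr, against 2261, 4170 and 2344 CPM in sgRosa. Here sgRosa replicates 1 and 3 were the low libraries, while sgRosa replicate 2 lay slightly above all sgEgfr libraries (log2 fold change 0.36, SE 0.40, edgeR adjusted p = 0.893; 0.74 without sgRosa replicate 2). Kif5c (chromosome 2, 49619298 to 49774778, plus strand) had 1848, 1093 and 2142 CPM in sgEgfr, against 1362, 1939 and 1466 CPM in sgRosa. The groups overlapped, with sgEgfr holding both the lowest and the highest library (log2 fold change 0.092, SE 0.37, edgeR adjusted p = 0.970).

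The share of Kif5a among Kif5 reads had separate groups where the levels overlapped, and it does not depend on scaling because it is a ratio of counts within a library. This share and the ratio below were chosen after the values were seen. Kif5a made up 30.5%, 23.5% and 37.8% of Kif5 reads in sgEgfr, against 42.8%, 43.1% and 43.4% in sgRosa, so that the 3 sgEgfr libraries lay below the 3 sgRosa libraries. Exact 95% binomial intervals of these shares reached at most 0.65 percentage points to either side and cover counting error only. Kif5b made up 47.9%, 60.4% and 36.6% in sgEgfr, against 35.7%, 38.8% and 34.8% in sgRosa, which overlapped, and Kif5c made up 21.6%, 16.0% and 25.5% in sgEgfr, against 21.5%, 18.1% and 21.8% in sgRosa. The ratio of Kif5a to Kif5c reads was 1.42, 1.47 and 1.48 in sgEgfr, against 1.99, 2.39 and 1.99 in sgRosa. On the log2 scale it averaged 0.54 ± 0.035 in sgEgfr and 1.08 ± 0.15 in sgRosa (SD, n = 3 each), a difference of -0.54 that lay between -0.58 and -0.45 without each library in turn. It carries no test, because it was chosen for its separate groups. Ratios with separate groups were not rare. Of the 105 pairs of transport kinesins 9 had them (8.57%), and the ratio of Kif5a to another tested gene was separately lower in sgEgfr for 11.1% of 13038 genes.

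**Figure D2:**
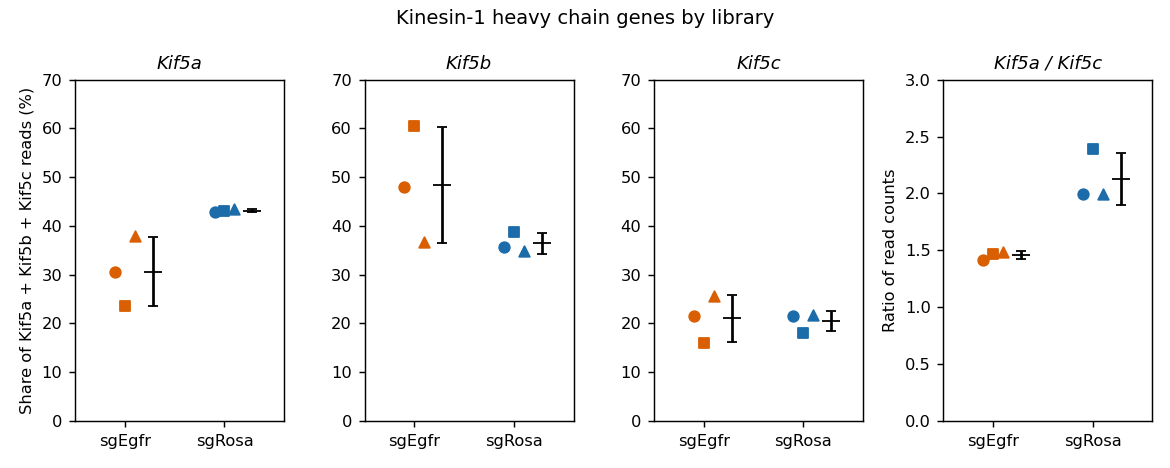
Share of Kif5a, Kif5b and Kif5c in the summed Kif5 reads of each library (percent, first 3 panels) and the ratio of Kif5a to Kif5c reads (last panel); circles, squares and triangles are replicates 1, 2 and 3, and black marks are the mean ± SD of 3 libraries. The Kif5a share is 23.5% to 37.8% in sgEgfr and 42.8% to 43.4% in sgRosa, and the Kif5a to Kif5c ratio is 1.42 to 1.48 in sgEgfr and 1.99 to 2.39 in sgRosa.

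Among kinesin-3 motors, Kif1a and Kif1b were the most abundant. Kif1a (chromosome 1, 93015464 to 93101951, minus strand), which carries synaptic vesicle precursors and dense core vesicles, had 817, 542 and 789 CPM in sgEgfr, against 1025, 879 and 810 CPM in sgRosa. Both lowest values were in sgEgfr, but sgEgfr replicate 1 lay just above sgRosa replicate 3 (log2 fold change -0.34, SE 0.30, edgeR adjusted p = 0.865). Kif1b, whose isoforms carry mitochondria and synaptic vesicle precursors, had 978, 1059 and 859 CPM in sgEgfr, against 883, 982 and 706 CPM in sgRosa. The ranges overlapped (log2 fold change 0.17, SE 0.29, edgeR adjusted p = 0.933). Gene counts do not separate the isoforms.

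The other kinesin-3 genes were scarcer, at most 7.96 CPM per kb on average in either group. Kif1c, which moves integrin-bearing and dense core vesicles, had 59.1, 72.3 and 40.5 CPM in sgEgfr, against 36.6, 62.7 and 21.9 CPM in sgRosa. The groups overlapped, and its log2 fold change of 0.53 (SE 0.41, edgeR adjusted p = 0.848) was the highest of the 26 tested members. Leaving out sgRosa replicate 2 gave 1.00. Leaving out sgRosa replicate 3 gave 0.22. Many tested members were then higher than Kif1c, from Kifc2 (0.96) and Kif3b (0.94) down to Kif5b (0.23). Kif13b, a carrier of signalling proteins at the membrane, had 110, 132 and 69.4 CPM in sgEgfr, against 88.3, 132 and 41.2 CPM in sgRosa, and Kif13a, an endosomal motor, had 44.8, 63.6 and 26.9 CPM in sgEgfr, against 61.6, 50.5 and 20.3 CPM in sgRosa. In each of these genes replicate 3 was the lowest library of both groups. The same libraries had the lowest oligodendrocyte marker sums, at 22726 CPM in sgEgfr replicate 3 and 24744 CPM in sgRosa replicate 3, and the highest neuron marker mean of their group; their part in these values was not tested. With the neuron marker mean as a covariate the log2 fold changes were 1.13 for Kif1c, 1.00 for Kif13b and 0.83 for Kif13a, against 0.53, 0.26 and 0.050 without it, and the edgeR adjusted p was 0.325 for each. Without sgRosa replicate 3 Kif13b turned to -0.085 and Kif13a to -0.31. Kif16b, a motor of early endosomes, had a log2 fold change of -0.20 and CPM values that overlapped between the groups.

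Kinesin-2 motors carry cargo in axons and dendrites and build cilia. They work as a heterotrimer of Kif3a with Kif3b or Kif3c, or as a homodimer of Kif17. Kif3a was the most even member, with 108, 92.2 and 122 CPM in sgEgfr, against 115, 87.7 and 126 CPM in sgRosa (log2 fold change -0.029, SE 0.24, edgeR adjusted p = 0.987; the sign turned under several alternatives). Kif3b had 35.8, 27.0 and 42.1 CPM in sgEgfr, against 17.4, 18.8 and 36.5 CPM in sgRosa. The sgRosa replicates 1 and 2 were low and replicate 3 lay among the sgEgfr values (log2 fold change 0.50, SE 0.34, edgeR adjusted p = 0.831). Without sgRosa replicate 3 the log2 fold change was 0.94 (edgeR adjusted p = 0.148, the smallest of any member under any alternative), without sgRosa replicate 1 it was 0.33, and with the neuron marker mean as a covariate it was 0.11. Kif3c, a neuronal partner of Kif3a, had 73.4, 50.4 and 72.5 CPM in sgEgfr, against 37.1, 51.4 and 77.1 CPM in sgRosa, with the same order among the sgRosa libraries (log2 fold change 0.24, SE 0.32, edgeR adjusted p = 0.907). Opposite-strand genes overlap 40.7% of the exon bases of Kif3c, and no source used here says whether counting was stranded. Kif17, the dendritic motor of NMDA receptor subunits, was scarce at 7.04, 5.13 and 5.46 CPM in sgEgfr, against 5.91, 2.92 and 9.72 CPM in sgRosa, where the sgRosa libraries spanned the sgEgfr ones (log2 fold change -0.13, SE 0.46, edgeR adjusted p = 0.965). The mean log2 CPM of the neuron markers was 6.20, 6.21 and 7.34 in sgRosa replicates 1, 2 and 3. Replicate 3 was also the highest sgRosa library for Kif3b and Kif3c. Replicates 1 and 2 were nearly level on this measure, and their summed marker CPM ran the other way, at 2306 and 2094. The part of cell makeup in these values was not tested.

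**Figure D3:**
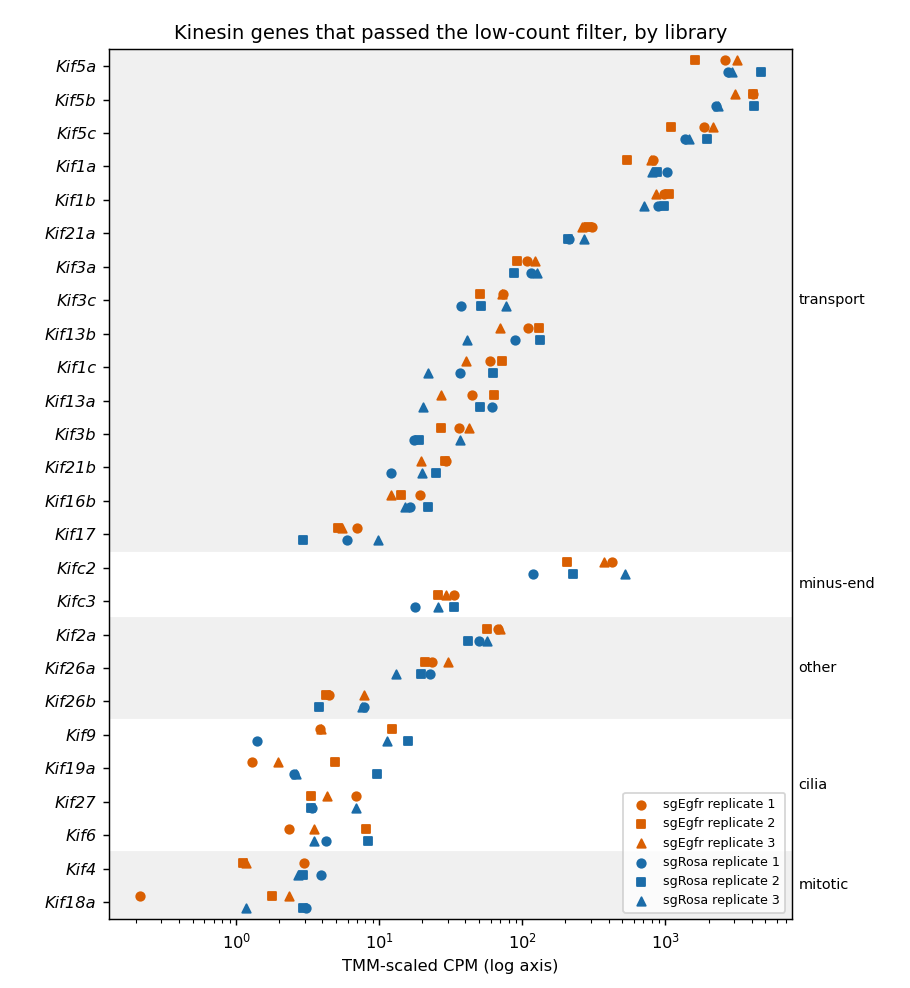
TMM-scaled CPM (log axis) of the 26 kinesin genes that passed the low-count filter, in each sgEgfr library (orange, upper row of each gene) and each sgRosa library (blue, lower row), ordered by class and by level per kb. Kif5a, Kif5b and Kif5c lie between 1093 and 4629 CPM, while Kif4 and Kif18a lie at or below 3.94 CPM; Kif2a is the one gene whose groups do not overlap.

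Kif21a and Kif21b, which restrain microtubule growth and carry neuronal cargo, had positive values. Kif21a had 307, 289 and 262 CPM in sgEgfr, against 213, 207 and 271 CPM in sgRosa; sgRosa replicate 3 exceeded the lowest sgEgfr library (log2 fold change 0.31, SE 0.25, edgeR adjusted p = 0.850). Kif21b had 29.4, 28.6 and 19.5 CPM in sgEgfr, against 12.1, 25.1 and 19.9 CPM in sgRosa, with overlap (log2 fold change 0.45, SE 0.32, edgeR adjusted p = 0.840). Kif2a does not walk but takes tubulin off microtubule ends and limits axon branching. It had 67.4, 56.5 and 69.7 CPM in sgEgfr, against 50.1, 41.8 and 56.4 CPM in sgRosa, and the lowest sgEgfr value stood just above the highest sgRosa value. Its log2 fold change of 0.38 (SE 0.22) had the smallest unadjusted p of the members (0.126, edgeR adjusted p = 0.824), and an opposite-strand gene overlaps 19.2% of its exon bases.

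Kif26a, an atypical kinesin without motor activity that acts in signalling, had 23.2, 20.8 and 30.4 CPM in sgEgfr, against 22.5, 19.6 and 13.1 CPM in sgRosa, which overlapped (log2 fold change 0.44, SE 0.29, edgeR adjusted p = 0.829). Its relative Kif26b stood at 4.24 to 7.79 CPM in sgEgfr, against 3.76 to 7.87 CPM in sgRosa, and Kif12 had 1 count in all libraries together. The minus-end motor Kifc2, found in neurons, spread widely in both groups. It had 424, 205 and 372 CPM in sgEgfr, against 119, 225 and 517 CPM in sgRosa, and sgRosa held both the lowest and the highest library (log2 fold change 0.21, SE 0.54, edgeR adjusted p = 0.957). The direction rests on single libraries: its log2 fold change was 0.96 without sgRosa replicate 3 (edgeR adjusted p = 0.235), 0.0037 without sgEgfr replicate 1 and -0.13 without sgRosa replicate 1, and it was -0.35 with the neuron marker mean as a covariate. Kifc3 had 33.5, 25.7 and 29.2 CPM in sgEgfr, against 17.7, 33.4 and 25.8 CPM in sgRosa, with overlap.

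Mitotic kinesins were at the edge of detection. Across the 14 genes the libraries held 50, 70 and 35 reads in sgEgfr, against 61, 46 and 119 reads in sgRosa, or between 0.0909% and 0.164% of kinesin reads in sgEgfr and between 0.112% and 0.189% in sgRosa. The exact 95% binomial intervals of these shares spanned 0.0674% to 0.207% in sgEgfr and 0.0930% to 0.242% in sgRosa. A floor of 3 counts in one library corresponds to between 0.640 and 1.17 CPM in sgEgfr and between 0.270 and 1.25 CPM in sgRosa, and covers counting error only. Kif18b, a regulator of spindle microtubules, and Kif2b were at 0 in every library. Kif14 and Kif2c, which act in cytokinesis and at kinetochores, had 3 and 4 reads in all libraries together.

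Of the mitotic genes only Kif4 and Kif18a passed the filter. Kif4 (chromosome X, 100625737 to 100727214, plus strand), a chromosome-bound motor that organizes the midzone of the spindle, had 14, 5 and 3 reads in sgEgfr, against 14, 7 and 30 in sgRosa. In CPM these were 2.99, 1.12 and 1.17 in sgEgfr, against 3.94, 2.92 and 2.7 in sgRosa, so that sgEgfr replicate 1 lay among the sgRosa libraries (log2 fold change -0.79, SE 0.55, edgeR adjusted p = 0.831; -1.45 without sgEgfr replicate 1). An opposite-strand gene overlaps 15.1% of its exon bases. Kif18a, which aligns chromosomes, had 1, 8 and 6 reads in sgEgfr, against 11, 7 and 13 in sgRosa. Its lowest library was sgEgfr replicate 1, and the other sgEgfr libraries lay within the sgRosa range of 1.17 to 3.09 CPM (log2 fold change -0.71, SE 0.82, edgeR adjusted p = 0.900; -0.16 without sgEgfr replicate 1).

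The mitotic genes that were not tested are given by their reads. Kif11, the motor that pushes spindle poles apart, had 3, 10 and 0 reads in sgEgfr, against 7, 8 and 13 in sgRosa. Kif23, needed for the last cut between daughter cells, had 6, 17 and 3 reads in sgEgfr, against 5, 1 and 9 in sgRosa, and was highest in sgEgfr replicate 2. Kif22 had 6 to 9 reads in sgEgfr, against 6 to 19 in sgRosa, and Kif15 had 4 to 6 reads in sgEgfr, against 2 to 6 in sgRosa. Kif20a and Kif20b had at most 10 reads in any library. Kifc1 and Kifc5b are close copies of each other and had at most 10 reads, so the split of reads between them is uncertain. Markers of proliferation were scarce too. Their 20 genes, Mki67 and Top2a among them, summed to 47.1 to 63.6 CPM in sgEgfr, against 53.4 to 67.7 CPM in sgRosa, and of the 7 that passed the filter 0 were called, with 4 positive and 3 negative. Mki67 had 12, 13 and 7 reads in sgEgfr, against 2, 8 and 14 in sgRosa.

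**Figure D4:**
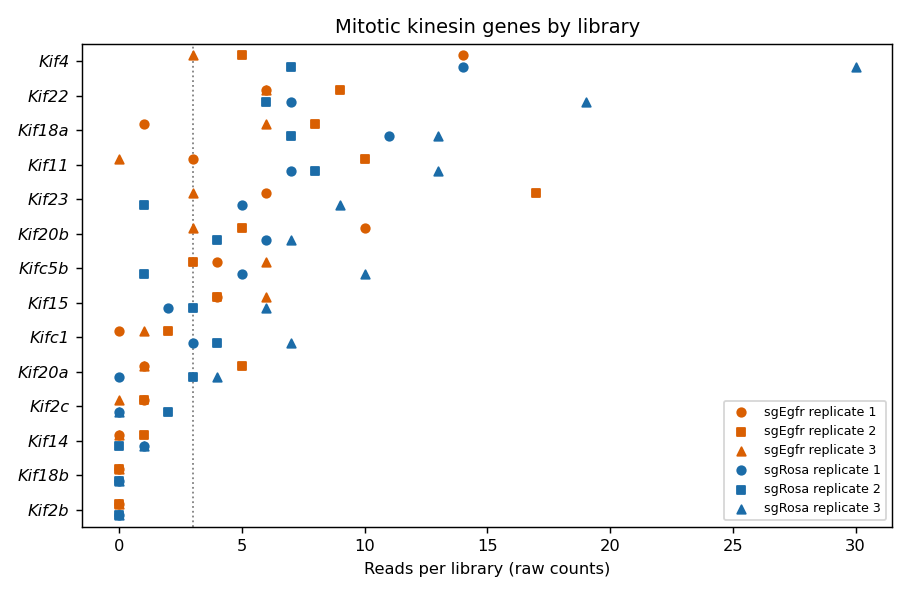
Raw reads of the 14 mitotic kinesin genes in each sgEgfr library (orange, upper row of each gene) and each sgRosa library (blue, lower row), with the dotted line at the floor of 3 counts; reads are not scaled, and sgRosa replicate 3 (triangles) has the deepest library. No gene exceeds 30 reads in any library, and Kif18b and Kif2b are at 0 in all.

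Kinesins of cilia were low, and in 3 of the 4 tested ones replicate 2 was the highest library of each group. Kif9, a motor of motile cilia, had 3.84, 12.3 and 3.90 CPM in sgEgfr, against 1.41, 15.9 and 11.3 CPM in sgRosa (log2 fold change -0.48, SE 0.79, edgeR adjusted p = 0.932; 0.073 without sgRosa replicate 2). Kif19a, which limits the length of cilia, had 1.28, 4.91 and 1.95 CPM in sgEgfr, against 2.53, 9.61 and 2.61 CPM in sgRosa (log2 fold change -0.74, SE 0.74, edgeR adjusted p = 0.878). The groups overlapped in both genes. The 10 ependymal markers, tested in the same fit with 0 called, summed to 35.0, 77.0 and 16.8 CPM in sgEgfr, against 7.31, 155 and 72.5 CPM in sgRosa. They were thus highest in replicate 2 of each group too, and 4 of the 10 had no read in sgRosa replicate 1, where Kif9 was lowest; their part in the values of the cilia kinesins was not tested. Kif6 ranged from 2.35 to 8.03 CPM in sgEgfr, against 3.51 to 8.35 CPM in sgRosa. Kif27, a relative of the hedgehog regulator Kif7, ranged from 3.35 to 6.82 CPM in sgEgfr, against 3.34 to 6.84 CPM in sgRosa, and was instead highest in sgEgfr replicate 1 and sgRosa replicate 3. Those are the libraries with RNA of the choroid plexus, whose marker Ttr had 8684, 126 and 0 reads in sgEgfr, against 36, 26 and 33901 in sgRosa. They were also the deepest library of each group. The part of choroid plexus RNA in the Kif27 values was not tested. Kif7 and Kif24, a centriolar kinesin, had at most 16 reads in a library and were not tested.

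No gene on the lists of motor partners was called by edgeR. Groups did not overlap for 1 of 5 tested light chain and accessory genes and 0 of 25 cargo adaptor genes, against 13.4% of all tested genes. Of 5 tested light chain and accessory genes 4 were positive (median log2 fold change 0.17, 0 called). Klc4 had 24.3, 20.1 and 19.9 CPM in sgEgfr, against 26.4, 29.7 and 26.5 CPM in sgRosa, with the sgEgfr libraries all lower (log2 fold change -0.36, edgeR adjusted p = 0.829), and Klc1, the main light chain by level, averaged 620 ± 103 CPM in sgEgfr and 551 ± 140 CPM in sgRosa (SD, n = 3 each). Kifap3, which holds Kif3 motors to their cargo, averaged 145 ± 43.6 CPM in sgEgfr and 115 ± 58.4 CPM in sgRosa. All 25 cargo adaptor genes were tested, 13 positive and 12 negative (median 0.011), with the smallest unadjusted p for Ppfia2, a liprin that binds Kif1a, at 153, 78.5 and 178 CPM in sgEgfr, against 37.7, 42.2 and 87 CPM in sgRosa (log2 fold change 1.28, SE 0.43, edgeR adjusted p = 0.820). One sgRosa library exceeded the lowest sgEgfr library.

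The retrograde motor dynein and its cofactors were split, 14 positive and 11 negative of 25 tested (median 0.021). Groups without overlap were 3 higher and 1 lower in sgEgfr among these 25 genes. They were 2 higher and 1 lower among 21 microtubule-associated genes, and 1 higher and 1 lower among 13 tubulin genes. Over all tested genes 5.8% were higher and 7.6% lower without overlap, so no result is read from the separate groups below. The dynein regulator Pafah1b1, the gene of the lissencephaly protein LIS1, had 362, 347 and 330 CPM in sgEgfr, against 195, 264 and 223 CPM in sgRosa, without overlap (log2 fold change 0.61, SE 0.25, edgeR adjusted p = 0.820). Microtubule-associated proteins were positive in 16 of 21 (median 0.29, 0 called by edgeR), against a median of 0.42 for the neuron markers, which share Map2 and Stmn2 with that list. Map1b, a large protein that binds axonal microtubules, had 10024, 6148 and 9287 CPM in sgEgfr, against 1264, 2798 and 3859 CPM in sgRosa. All 3 sgEgfr libraries exceeded the sgRosa libraries (log2 fold change 1.68, SE 0.51, edgeR adjusted p = 0.820; DESeq2 adjusted p = 0.0429; limma-voom adjusted p = 0.253). Stmn1, which destabilizes microtubules, had 71.4, 64.7 and 64.7 CPM in sgEgfr, against 135, 82.7 and 93.3 CPM in sgRosa, without overlap in the other direction (log2 fold change -0.63, SE 0.25, edgeR adjusted p = 0.820). Tubulin genes were positive in 6 of 13 (median -0.035). Tubb5 had 457, 416 and 498 CPM in sgEgfr, against 237, 326 and 346 CPM in sgRosa (log2 fold change 0.59, SE 0.27, edgeR adjusted p = 0.820), and the oligodendrocyte-rich Tubb4a had 353, 477 and 319 CPM in sgEgfr, against 1232, 515 and 389 CPM in sgRosa (log2 fold change -0.90, SE 0.47, edgeR adjusted p = 0.820).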

How the data were processed

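The members, their classes and the gene lists were chosen with earlier results of these data known. The authors deposited raw counts of reads per gene for 6 libraries, in one table each and in a series table whose 6 matching columns were identical; 3 further columns matched no sample and were not used. The submitters' processing notes list STAR 2.7.5c, featureCounts 2.0.1, fastp 0.23.2, edgeR 3.42.4, MultiQC 1.11 and FastQC 0.11.9 with build mm10. Their options, the annotation and strandedness are not given in the sources used here. Libraries, per the labels' protocols, were made from 5 ng of RNA, and no molecular identifiers are mentioned, so intervals and floors cover counting error only.

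Counts were filtered (filterByExpr, minimum count 10, minimum total 15), scaled by TMM and tested over all 13159 genes with edgeR 4.0.16 (quasi-likelihood, robust, no covariate, R 4.3.3) at a Benjamini-Hochberg threshold of 0.05; the test was also run on simulated counts. The SE is the log2 fold change over the root of F. DESeq2 1.42.0, limma-voom (limma 3.58.1), other scaling, other filters, a replicate block, a neuron marker covariate (mean log2 CPM, prior count 2) and left-out libraries were alternatives. Lengths are merged exons of GENCODE release M21. Of 233 list genes 231 were in the counts. The rule for genes named in full took 11 transport genes, the tested mitotic genes and the 10 members with the smallest unadjusted p; other members are given in addition. From each partner list at most 4 genes, those of smallest unadjusted p, were eligible to be named. Kinesins overlapped on the opposite strand numbered 13. Between libraries the chi-square of counts per degree of freedom was at least 10.0, so none was taken for a repeat deposit.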

Additional observations from a re-analysis of the deposited data

How the results depend on the processing

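Kinesin genes called stayed at 0 under all 16 alternatives. With DESeq2 some members, Kif4 and Kif18a among them, had no adjusted p and could not be called. Over all genes the count was 0 except for 1 with no filter and 25 with DESeq2, among them 0 kinesins. The transport median of 0.17 lay between 0.075 and 0.27 without each library in turn and kept its sign under the 15 alternatives. The mitotic median of -0.75 lay between -1.03 and -0.39 without each library and was 0.012 with no filter; the stricter filter, and leaving out both libraries with choroid plexus RNA, left no mitotic member to fit. Of the 26 tested kinesins, 14 kept their sign in every alternative, and over all of them 37 of 385 values turned sign; 9 of the 26 were added to this comparison after the data were seen. Kif5c turned to -0.0038 with limma-voom, -0.022 with the neuron marker covariate and -0.023 without both choroid libraries, and ranged from -0.091 to 0.35 without each library. Kif3a turned to 0.00033 with no filter, 0.17 with limma-voom and 0.082 without both choroid libraries, and ranged from -0.14 to 0.097 without each library. Kif17 turned to 0.35 with limma-voom, 0.014 with the replicate block and 0.24 without both choroid libraries, and ranged from -0.39 to 0.38 without each library. Kif3c turned to -0.10 with the covariate, and Kif19a ranged from -1.54 to 0.13 without each library. Kif13a turned to -0.18 with limma-voom and -0.29 without both choroid libraries (-0.31 to 0.40 without each library), and Kif13b to -0.12 with limma-voom and -0.12 without both choroid libraries (-0.085 to 0.69). With the covariate Kifc2 turned to -0.35 (-0.13 to 0.96 without each library), Kif27 to -0.28 (-0.30 to 0.52) and Kif6 to 0.28 (-0.83 to 0.31). Without both choroid libraries Kif9 turned to 0.00096 (-1.25 to 0.073 without each library) and Kif26b to 0.0045 (-0.55 to -0.083). The causes were not tested.

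Same-numbered libraries had correlations of their deviations of -0.028, 0.48 and 0.29. The sgEgfr replicates 2 and 3 correlated best with their own number in sgRosa, while sgEgfr replicate 1 correlated best with sgRosa replicate 3 (0.23). These values do not settle whether the numbers mark pairs, and neither do the labels. The main fit did not pair the libraries, and a replicate block was run as an alternative. With the replicate block, the calls were 0 of 13159 genes and 0 kinesins, with 1258 genes at an unadjusted p under 0.05, against 759 without it. At these depths 12 of the 14 mitotic members did not pass the filter.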

Other observations

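Ratios of reads between transport kinesins do not depend on library scaling. Besides the pairs of Kif5a with Kif5b and with Kif5c, 7 of the 105 pairs had separate groups. All 9 together made up 8.57% of the pairs. The share over pairs of other genes was not computed, but Kif5a to another tested gene was separately lower in sgEgfr for 11.1% of 13038 genes. The ratio of Kif3a to Kif3b, subunits of the same heterotrimer, averaged 1.64 ± 0.12 in sgEgfr and 2.24 ± 0.47 in sgRosa on the log2 scale (SD, n = 3 each), and that of Kif3b to Kif3c averaged -0.91 ± 0.12 in sgEgfr and -1.21 ± 0.21 in sgRosa. Kif3b to Kif5a averaged -6.11 ± 0.19 in sgEgfr and -7.18 ± 0.82 in sgRosa. The log2 ratio of the endosomal motor Kif16b to each of Kif1c, Kif21b and Kif5b was lower in sgEgfr than in sgRosa. The differences between the groups were -0.82, -0.71 and -0.64. That of Kif13b to Kif1c was also lower in sgEgfr, with a difference of -0.24. The gap between the groups was 0.43 for Kif5a to Kif5c and at most 0.21 for the other 8 pairs. These pairs were chosen by their values and carry no test. Pairs that share a gene, such as those of Kif16b, are not separate observations.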
